A study of Homo sapiens with 6 samples.

Results

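The 48 genes described here encode the subunits of Mediator and Integrator, a pair of large complexes that act on RNA polymerase II. They are the protein-coding genes whose symbols are MED or INTS followed by a number (an L allowed after a MED number), together with CDK8, CDK19 and CCNC, the kinases and cyclin of Mediator. They are 48 of the 62703 genes in the count tables, 33 for Mediator and 15 for Integrator. The rule uses symbols and no measured values, but it was chosen with earlier results of these data known. RNA was sequenced in bulk from the MDA-MB-231 line, derived from human breast cancer that lacks hormone receptors and ERBB2 amplification (triple-negative), carrying hairpin RNA against RNF20 (shRNF20, 3 libraries) or a control hairpin (shControl, 3 libraries). RNF20 is a ubiquitin ligase that, with RNF40, places ubiquitin on histone H2B in transcribed genes. All 6 libraries come from the same line, and the labels name no difference between them other than the hairpin. The labels give neither the number of hairpins against RNF20 nor whether cells were pools or clones, nor do they call the replicates separate cultures. The p-values therefore reflect variation among these 6 libraries, which could be technical. The study's title concerns RNF20, immune suppression and the kinase CDK9, and does not name these complexes.

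Mediator bridges transcription factors bound at enhancers and the RNA polymerase II machinery at promoters. Its head and middle modules contact the polymerase, MED14 is the backbone that joins the modules, the tail receives most activators, and a separable kinase module binds the core reversibly and blocks its contact with the polymerase. Integrator associates with polymerase paused downstream of promoters. Its endonuclease cuts nascent RNA, which forms the ends of small nuclear RNAs (snRNAs) and terminates transcription early at many protein-coding genes, and it carries a protein phosphatase that opposes the kinases of elongation.

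Promoter sequences are given for the 2 largest risers and the 2 largest fallers among the 36 of 48 members in the RefSeq promoter table (GRCh38.p14), because motifs in them are compared further on. Each runs 5′ to 3′ on the strand of the gene, from 250 bases before the transcription start to 50 bases after it. Capitals mark matches to a searched motif on either strand. MED17 and MED20 encode head subunits of Mediator, and INTS1 and INTS13 encode subunits of the backbone and arm of Integrator.
MED17, chr11:93784032-93784331, plus strand: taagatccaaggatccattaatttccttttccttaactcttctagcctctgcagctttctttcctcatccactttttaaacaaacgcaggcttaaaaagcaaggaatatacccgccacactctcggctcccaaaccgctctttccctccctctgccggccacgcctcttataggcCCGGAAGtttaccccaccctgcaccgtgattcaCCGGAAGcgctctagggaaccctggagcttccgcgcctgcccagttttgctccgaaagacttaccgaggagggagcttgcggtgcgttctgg
MED20, chr6:41920894-41921193, minus strand: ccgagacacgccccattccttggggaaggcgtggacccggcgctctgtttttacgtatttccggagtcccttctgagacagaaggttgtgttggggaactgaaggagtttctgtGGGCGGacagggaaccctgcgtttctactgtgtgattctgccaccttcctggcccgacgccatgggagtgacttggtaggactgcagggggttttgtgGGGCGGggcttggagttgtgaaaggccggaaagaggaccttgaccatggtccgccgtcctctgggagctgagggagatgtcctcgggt
INTS1, chr7:1504340-1504639, minus strand: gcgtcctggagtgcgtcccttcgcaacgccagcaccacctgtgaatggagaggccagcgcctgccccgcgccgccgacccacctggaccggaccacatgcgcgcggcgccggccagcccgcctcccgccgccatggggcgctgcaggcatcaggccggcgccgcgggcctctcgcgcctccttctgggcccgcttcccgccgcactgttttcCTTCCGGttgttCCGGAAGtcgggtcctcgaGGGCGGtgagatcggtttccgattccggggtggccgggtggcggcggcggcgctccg
INTS13, chr12:26937932-26938231, minus strand: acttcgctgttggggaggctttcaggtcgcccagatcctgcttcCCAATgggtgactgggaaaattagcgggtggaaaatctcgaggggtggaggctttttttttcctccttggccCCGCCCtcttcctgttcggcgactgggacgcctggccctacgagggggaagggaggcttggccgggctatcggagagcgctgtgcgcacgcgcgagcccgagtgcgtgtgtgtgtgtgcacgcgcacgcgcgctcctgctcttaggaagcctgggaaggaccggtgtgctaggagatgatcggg
The capitals in MED17 are 2 copies of the ETS core CCGGAAG, and those in MED20 are 2 GC boxes (GGGCGG). INTS1 holds an ETS core on each strand and a GC box, and INTS13 holds a CCAAT box and a GC box on the opposite strand.

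Reads assigned to genes totalled 26000971, 21988826 and 28265573 in the shRNF20 libraries and 29685306, 25269535 and 23786533 in the shControl libraries. Levels are CPM, the counts of a gene per 1000000 counts of its library, with library sizes scaled by TMM. RNF20 itself stood at 14.1, 12.2 and 11.1 CPM in shRNF20 cells, against 57.8, 58.5 and 58.0 CPM in shControl cells. That is a log2 fold change of -2.22 (SE 0.11, adjusted p = 5.23e-06 by edgeR's quasi-likelihood test with Benjamini-Hochberg adjustment over 15797 genes). Of the markers that the line expresses, VIM, CD44 and EGFR fell and AXL did not pass, though each stayed above 341 CPM in every library. CD44 fell by 1.23 on the log2 scale (edgeR adjusted p = 4.50e-05), and PGR stayed under 0.22 CPM, and the leukocyte markers CD2, MS4A1 and FCGR3A were at 0 throughout. ESR1 was at 1.27 to 1.68 CPM in shRNF20 libraries and 0 to 0.197 CPM in shControl libraries. It rose by 3.76 on the log2 scale (edgeR adjusted p = 6.92e-04), from 0 to 5 counts in shControl libraries. ERBB2 also rose (0.45, edgeR adjusted p = 0.00146), at 138.5 to 141.1 CPM in shRNF20 libraries and 91.3 to 107.5 CPM in shControl libraries. Leukocyte markers could be tested for 4 of 10, of which 1 rose (CD14), 2 fell (CSF1R and LCP1) and PTPRC did not pass. The 10 leukocyte markers summed to 4.4 to 6.3 CPM in shRNF20 libraries and 6.0 to 9.9 CPM in shControl libraries. Fibroblast and endothelial markers could be tested for 7 of 10, of which 4 rose and 1 fell. These 10 summed to 65.1 to 68.9 CPM in shRNF20 libraries and 29.9 to 40.9 CPM in shControl libraries. Mitochondrially encoded genes took 4.91% to 6.22% of counts in shRNF20 libraries and 0.934% to 1.38% in shControl libraries. The part of these shifts in the results below was not tested, beyond a fit without mitochondrial genes, which ended the call of 1 member (MED11).

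Among Mediator mRNAs more rose than fell in shRNF20 cells, and among Integrator mRNAs more fell than rose. Of 33 Mediator subunits 16 rose, 7 fell and 10 did not pass the adjusted p threshold of 0.05, and of 15 Integrator subunits 1 rose, 6 fell and 8 did not pass. All 48 members were counted well enough to be tested. Over all 15797 genes tested 58.4% passed, 28.7% higher and 29.8% lower in shRNF20 cells, and over the 12910 protein-coding genes 60.4% passed, 28.0% higher and 32.4% lower. The 30 members that changed, 17 up and 13 down, are thus close to the background in number. The median log2 fold change was 0.28 over Mediator and -0.22 over Integrator, beside -0.01 over all genes tested and -0.04 over protein-coding genes. Whether the complexes differ from each other or from other genes was not tested.

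The changes were of modest size. Past the threshold, 6 members rose and 6 fell at least 1.5-fold, against 17.9% and 20.5% of all genes tested and 15.1% and 21.3% of protein-coding ones. At least 2-fold, 3 rose and none fell, against 10.5% and 11.7% of all genes tested and 6.85% and 11.5% of protein-coding ones. The libraries of both groups did not overlap for 36 members (19 higher, 17 lower in shRNF20 cells), a pattern held by 66.3% of all genes tested and 68.1% of protein-coding ones. Summed over subunits, Mediator mRNA was at 1630 to 1662 CPM in shRNF20 libraries and 1407 to 1602 CPM in shControl libraries, and Integrator mRNA at 590.9 to 608.2 CPM in shRNF20 libraries and 674.6 to 762.4 CPM in shControl libraries. All members together made up 0.224% to 0.227% of counts in shRNF20 libraries and 0.209% to 0.234% in shControl libraries. In bulk RNA a change in the number of transcripts per cell cannot be told apart from a change in the mix of cells.

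**Figure D1:**
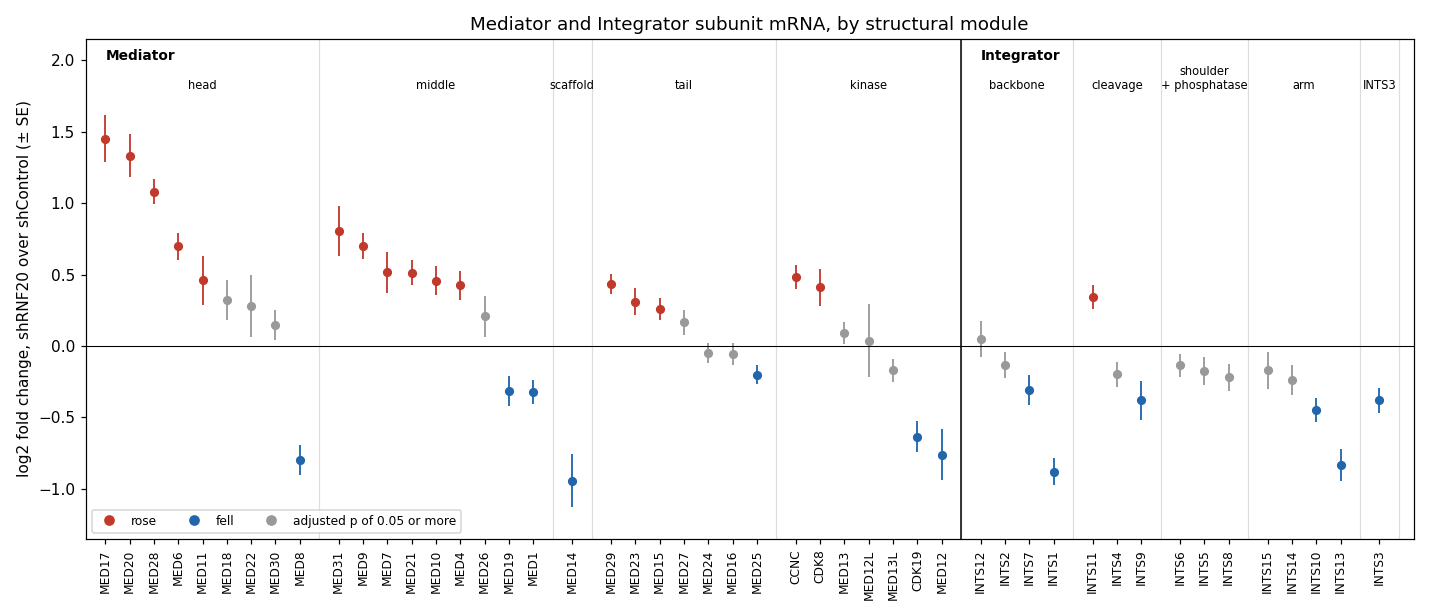
Log2 fold change (shRNF20 over shControl, vertical axis) with its SE for each of the 48 subunits, grouped by structural module along the horizontal axis; red points rose, blue points fell and grey points did not pass the test. The Mediator head and middle lie mostly above 0, with MED8 at -0.80 and MED14 at -0.94 as the deepest Mediator falls, and all Integrator points but INTS11 and INTS12 lie below 0.

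The shRNF20 libraries resembled one another more than the shControl libraries did. The median coefficient of variation over members was 4.53% in shRNF20 libraries and 8.88% in shControl libraries. When the 3 shRNF20 libraries were summed and counted as 1 sample, MED6, MED9, MED17, MED20 and MED28 still rose and MED8, INTS1 and INTS13 still fell, and the other 22 calls were lost. Those 8 are the calls that held in every alternative run. Of the 30 calls, 19 held with each library left out in turn.

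The head module, which contacts the polymerase and its C-terminal tail, had the largest rises. Of its 9 subunits 5 rose (MED6, MED11, MED17, MED20 and MED28), 1 fell (MED8) and 3 did not pass. The median log2 fold change was 0.46. Their summed level was 319.4 to 322.1 CPM in shRNF20 libraries and 182.4 to 234.0 CPM in shControl libraries, without overlap.

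MED17 is the central architectural subunit of the head and lies on chromosome 11 (hg38, 93784227 to 93814963). It stood at 9.62, 10.5 and 9.81 CPM in shRNF20 libraries and 4.27, 3.20 and 3.45 CPM in shControl libraries. Every shRNF20 library was thus more than 2-fold above every shControl library. The log2 fold change was 1.45 (SE 0.16, adjusted p = 1.38e-04 by edgeR). It rests on few reads, as low as 81 in a shControl library. Other genes, mainly one on the same strand that is listed at 0, share 13.5% of its exon bases, and reads over those are not counted.

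MED20 forms a movable jaw with MED18 in the head and lies on chromosome 6 (41905354 to 41921139). It had 59.5, 63.8 and 62.3 CPM in shRNF20 libraries, against 29.3, 18.6 and 25.8 CPM in shControl libraries. The lowest shRNF20 library had more than 2-fold the CPM of the highest shControl library. Its log2 fold change was 1.33 (SE 0.15, edgeR adjusted p = 1.42e-04). MED18, its partner, was at 35.5 ± 0.752 CPM in shRNF20 cells and 28.4 ± 5.66 CPM in shControl cells (SD, n = 3 each). The libraries did not overlap, but MED18 did not pass the test (log2 fold change 0.32, adjusted p = 0.075 by edgeR). It passed at 0.47 without shControl replicate 3, and was at 0.16 without shControl replicate 1.

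MED28, a metazoan head subunit also known to bind the cytoskeletal protein merlin, lies on chromosome 4 (17614631 to 17634105) and had the smallest p of all members. It stood at 79.9, 74.4 and 77.5 CPM in shRNF20 libraries and at 37.9, 32.7 and 39.0 CPM in shControl libraries. The groups were well apart, and the log2 fold change was 1.08 (SE 0.09, edgeR adjusted p = 3.27e-05). FAM184B on the opposite strand shares 32.1% of the exon bases of MED28, and is itself at 2.27 CPM in shRNF20 cells and 1.48 CPM in shControl cells. MED6, which in yeast joins the head to the middle, rose by a log2 fold change of 0.70 (edgeR adjusted p = 3.80e-04). MED11, which pairs with MED22 in yeast, rose by 0.46 on the log2 scale (edgeR adjusted p = 0.0469). That call was lost without any 1 of the shRNF20 libraries or without shControl replicate 2 or 3, at log2 fold changes of 0.35 to 0.52. Other genes share 36.9% of the exon bases of MED11.

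MED8 went the other way. This subunit, which tethers the MED18 and MED20 jaw to the head, is the only head member that fell. Its levels, shown because of that direction and so chosen after they were seen, were 13.7, 15.3 and 15.5 CPM in shRNF20 libraries and 26.5, 23.7 and 27.4 CPM in shControl libraries. Again the groups lay well apart, with a log2 fold change of -0.80 (SE 0.11, edgeR adjusted p = 3.54e-04). MED30, a metazoan head subunit, was at a log2 fold change of 0.15 and did not pass. MED22 was at 64.1, 67.0 and 62.3 CPM in shRNF20 libraries and 74.0, 35.9 and 48.9 CPM in shControl libraries, values chosen after they were seen. One shControl library lies above all shRNF20 libraries and the others below them, so the log2 fold change of 0.28 did not pass. Without shControl replicate 1 it was 0.58 and passed, and without shControl replicate 2 it was 0.04.

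**Figure D2:**
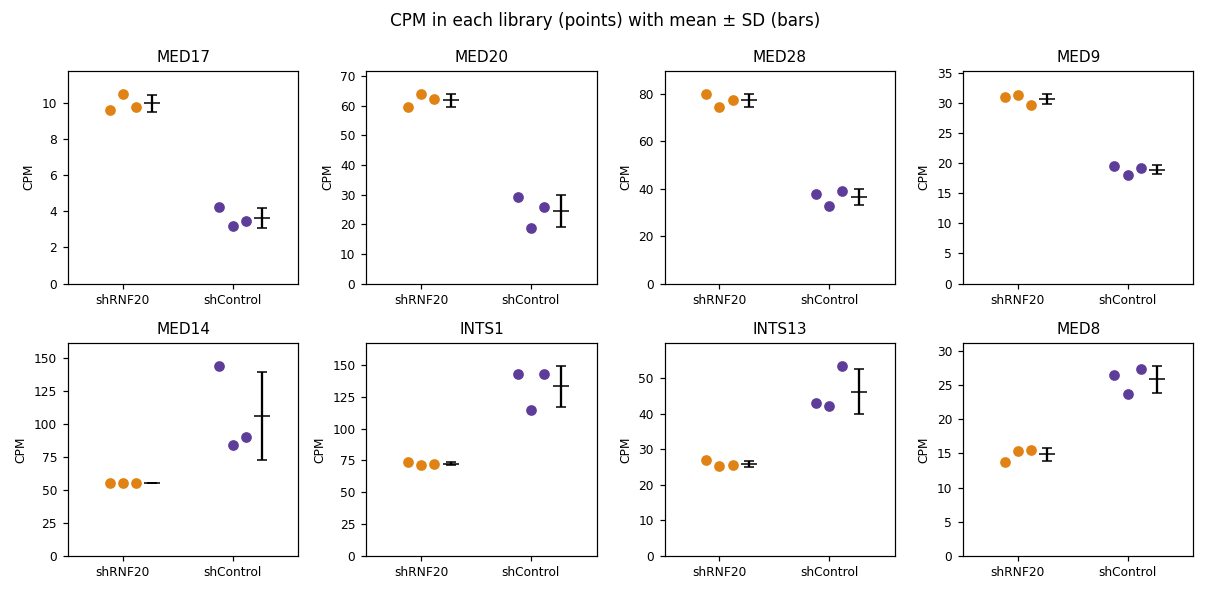
CPM (vertical axis, from 0) of 8 subunits in each shRNF20 library (orange, left) and each shControl library (purple, right), with the mean and SD as bars. MED17, MED20, MED28 and MED9 are higher in every shRNF20 library; MED14, INTS1, INTS13 and MED8 are lower, and for MED14 shControl replicate 1 stands above the others at 144.0 CPM.

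In the middle module, which relays contacts between the tail, the kinase module and the polymerase, 6 of 9 subunits rose, 2 fell and 1 did not pass. The median log2 fold change was 0.46. For each of the 9 the libraries of both groups did not overlap, a pattern held by 66.3% of all genes tested and 68.1% of protein-coding ones. MED9, the partner of MED4 in yeast, had 30.9, 31.4 and 29.7 CPM in shRNF20 libraries and 19.5, 18.0 and 19.2 CPM in shControl libraries. It is among the steadiest members, with a log2 fold change of 0.70 (SE 0.09, edgeR adjusted p = 2.80e-04). MED21, which in yeast forms with MED7 the hinge of the module, stood at 58.4, 58.6 and 57.7 CPM in shRNF20 libraries and 37.7, 39.0 and 45.7 CPM in shControl libraries. The shRNF20 libraries nearly coincide and lie above all shControl libraries (log2 fold change 0.51, SE 0.09, adjusted p = 0.00147 by edgeR). MED10, which lies beside MED14 in the hook of the module, had 67.2, 63.4 and 67.8 CPM in shRNF20 libraries and 49.5, 41.8 and 53.2 CPM in shControl libraries. Here too the groups were apart (0.46, SE 0.10, edgeR adjusted p = 0.00407).

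Of the other middle subunits, MED31, MED4 and MED7 rose by log2 fold changes of 0.81, 0.42 and 0.52. MED31 was counted over few bases, since 58.4% of its exon bases are shared with TXNDC17 on the opposite strand, which itself rose by 0.33. The call of MED7 was lost without shRNF20 replicate 3, at 0.42. MED1, the subunit that nuclear receptors bind, fell by 0.32 on the log2 scale, to 104.5 ± 8.78 CPM in shRNF20 cells against 130.7 ± 7.71 CPM in shControl cells (SD, n = 3 each). MED19, at the hook, fell by 0.32 on the same scale. The calls of MED1 and MED19 were lost without shRNF20 replicate 1, at -0.29 and -0.32, and that of MED19 also without shRNF20 replicate 2, at -0.29. MED26, which exchanges elongation factors onto the polymerase, was at 0.21 and did not pass. Other genes share 50.1% of its exon bases, and reads over those are not counted.

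MED14, the backbone to which head, middle and tail are all attached, lies on chromosome X (40648306 to 40735858) and showed the deepest fall of the 48. It stood at 55.0, 55.1 and 55.3 CPM in shRNF20 libraries, against 144.0, 83.7 and 90.02 CPM in shControl libraries. The shRNF20 libraries are almost equal and below every shControl library, of which replicate 1 is far above the other 2. The log2 fold change was -0.94 (SE 0.19, edgeR adjusted p = 0.00259), and -0.68 without shControl replicate 1.

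The tail, where activators dock, spanned log2 fold changes of -0.20 to 0.44, a narrower range than that of the head or the middle. Of 7 subunits 3 rose, 1 fell and 3 did not pass, and the median was 0.17. MED29, the human counterpart of the Drosophila protein Intersex, had 90.4, 96.1 and 98.8 CPM in shRNF20 libraries and 67.4, 72.4 and 71.2 CPM in shControl libraries. It was clearly separated (log2 fold change 0.44, SE 0.07, edgeR adjusted p = 9.95e-04). MED23, which receives the activator ELK1, had 29.7, 26.9 and 28.6 CPM in shRNF20 libraries and 24.2, 22.4 and 22.1 CPM in shControl libraries. Its groups were apart by a small margin, with a log2 fold change of 0.31 (edgeR adjusted p = 0.0191). MED15, which binds the lipid regulators of the SREBP family, had 149.8, 153.4 and 147.5 CPM in shRNF20 libraries and 135.9, 114.7 and 126.1 CPM in shControl libraries. It was higher in each shRNF20 library, by 0.26 on the log2 scale (edgeR adjusted p = 0.0201). Leaving out any 1 shRNF20 library ended the call of MED15, at 0.23 to 0.26, and leaving out shRNF20 replicate 1 or 3 ended that of MED23, at 0.27 and 0.29.

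MED25, the target of the viral activator VP16, was the only tail subunit that fell (log2 fold change -0.20, edgeR adjusted p = 0.0273). The direction depends on how reads are counted: other genes, mainly PTOV1-AS1 on the opposite strand, share 19.8% of its exon bases, and MED25 was at 0.13 when the strand columns were summed, which keeps reads over opposite genes. The call was also lost without any 1 shRNF20 library, at -0.23 to -0.21, and under upper quartile scaling, at -0.17. MED27, MED16 and MED24 were at 0.17, -0.06 and -0.05 and did not pass.

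The kinase module holds CDK8 or its paralog CDK19, cyclin C, MED12 or MED12L, and MED13 or MED13L. Of the 7 genes 2 rose, 2 fell and 3 did not pass, and its summed level overlapped between groups, at 326.1 to 350.9 CPM in shRNF20 libraries and 320.9 to 359.9 CPM in shControl libraries. The paralog kinases moved in opposite directions. CDK8 stood at 26.6, 24.9 and 25.4 CPM in shRNF20 libraries, against 21.1, 15.8 and 21.0 CPM in shControl libraries. It was higher in each shRNF20 library (log2 fold change 0.41, SE 0.13, adjusted p = 0.0237 by edgeR). Without any 1 shRNF20 library the call was lost, at 0.37 to 0.42, and without shControl replicate 2, the lowest, the value was 0.26. CDK19 stood at 16.7, 16.8 and 14.5 CPM in shRNF20 libraries, against 23.0, 25.4 and 26.2 CPM in shControl libraries. All shRNF20 libraries lay below the shControl libraries (log2 fold change -0.64, SE 0.11, adjusted p = 0.00123 by edgeR).

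The ratio of the paralogs within a library does not depend on how libraries are scaled. The log2 ratio of CDK19 to CDK8 counts was -0.67, -0.56 and -0.81 in shRNF20 libraries and 0.13, 0.69 and 0.32 in shControl libraries. CDK19 counts were therefore below CDK8 counts in every shRNF20 library and above them in every shControl library, at a geometric mean of 62.4% of CDK8 counts in shRNF20 libraries and 130.0% in shControl libraries. The difference was -1.06, with an exact two-sided permutation p of 0.1, the smallest that 3 against 3 libraries allow, and 0.133 adjusted over the 4 paralog pairs compared. Per kilobase of transcript the level of CDK8 was above that of CDK19 in both groups, at 8.38 and 2.56 CPM per kb in shRNF20 cells and 6.31 and 3.98 CPM per kb in shControl cells.

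CCNC, cyclin C, which activates both kinases, had 43.9, 41.6 and 41.6 CPM in shRNF20 libraries and 31.8, 28.3 and 31.0 CPM in shControl libraries. It was higher in every shRNF20 library (log2 fold change 0.48, SE 0.08, edgeR adjusted p = 0.00146). MED12, which activates the kinase through cyclin C, had 19.6, 22.9 and 19.9 CPM in shRNF20 libraries and 42.6, 25.5 and 37.4 CPM in shControl libraries. It was lower in every shRNF20 library, though shControl replicate 2 came close to them (log2 fold change -0.76, SE 0.18, edgeR adjusted p = 0.00618). MED12L, its scarce paralog, had 2.85, 3.995 and 3.69 CPM in shRNF20 libraries and 2.47, 3.43 and 4.39 CPM in shControl libraries, and the groups overlapped. Other genes, mainly IGSF10 on the opposite strand, share 30.1% of the exon bases of MED12L. The log2 ratio of MED12L to MED12 was -2.57 ± 0.18 in shRNF20 libraries and -3.36 ± 0.65 in shControl libraries (SD, n = 3 each), a difference of 0.79 (exact permutation p = 0.1, adjusted 0.133), and of 0.42 without shControl replicate 1.

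MED13, which links the kinase module to the core, had 132.4, 125.9 and 144.0 CPM in shRNF20 libraries and 133.6, 122.5 and 122.5 CPM in shControl libraries. Its paralog MED13L had 90.9, 89.9 and 101.8 CPM in shRNF20 libraries and 105.4, 100.1 and 112.8 CPM in shControl libraries. Both overlapped between groups and did not pass, at log2 fold changes of 0.09 and -0.17. MED13L passed at -0.23 without shControl replicate 2. Their log2 ratio was nonetheless lower in every shRNF20 library, at -0.51 ± 0.03 in shRNF20 libraries and -0.25 ± 0.12 in shControl libraries (SD, n = 3 each), a difference of -0.26 (exact permutation p = 0.1, adjusted 0.133).

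**Figure D3:**
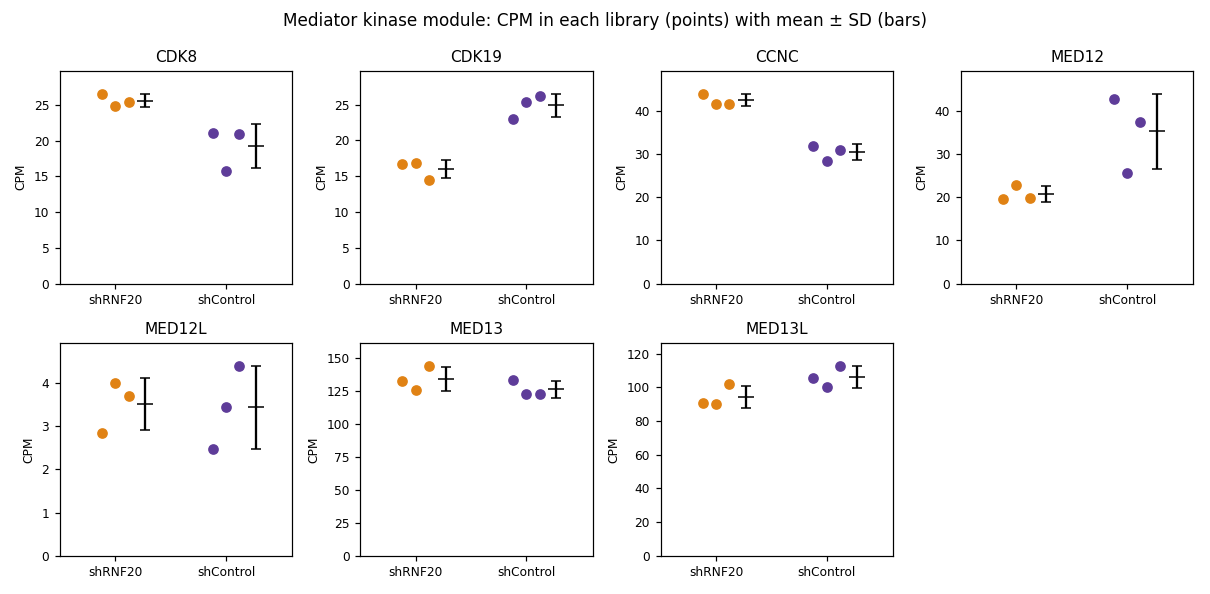
CPM (vertical axis, from 0) of the 7 kinase module genes in each shRNF20 library (orange, left) and each shControl library (purple, right), with the mean and SD as bars. CDK8 and CCNC are higher and CDK19 and MED12 lower in every shRNF20 library, and the MED12L, MED13 and MED13L points overlap.

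Integrator subunits were below 0 in log2 fold change for 13 of 15, and 6 of them fell past the threshold. Below 0 were also 7998 of all 15797 genes tested and 6795 of 12910 protein-coding ones. INTS8, among the 13, was at 0.12 with strand columns summed, and INTS12, not among them, at -0.0225. In the backbone (INTS1, INTS2, INTS7 and INTS12) 2 fell, 2 did not pass and the median was -0.22. INTS1, the largest subunit and the scaffold of the complex, lies on chromosome 7 (1470277 to 1504367). It stood at 73.6, 71.6 and 72.4 CPM in shRNF20 libraries, against 142.7, 114.9 and 142.6 CPM in shControl libraries. No Integrator mRNA fell further: the shRNF20 libraries lie within a few CPM of one another, far below all shControl libraries (log2 fold change -0.88, SE 0.09, edgeR adjusted p = 1.12e-04). INTS7 had 45.6, 44.3 and 43.7 CPM in shRNF20 libraries and 62.9, 47.3 and 55.2 CPM in shControl libraries. It was lower in each shRNF20 library, by -0.31 on the log2 scale (edgeR adjusted p = 0.0354). The call held only without shControl replicate 2 among the libraries left out in turn (range -0.43 to -0.22). INTS2 had 36.2, 38.2 and 33.3 CPM in shRNF20 libraries and 37.0, 42.3 and 39.0 CPM in shControl libraries, and the groups overlapped. INTS12, which carries a PHD finger, was at 0.05 and did not pass.

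In the cleavage module the directions were mixed. INTS11, the endonuclease itself, was the only Integrator subunit that rose. It had 128.5, 132.7 and 121.1 CPM in shRNF20 libraries and 101.2, 90.6 and 109.7 CPM in shControl libraries, higher in each shRNF20 library (log2 fold change 0.34, SE 0.09, adjusted p = 0.00852 by edgeR). Its catalytically inactive partner INTS9 had 13.2, 13.1 and 11.5 CPM in shRNF20 libraries and 17.1, 13.9 and 18.2 CPM in shControl libraries. It fell by 0.38 on the log2 scale (SE 0.14, edgeR adjusted p = 0.038). Without shRNF20 replicate 2 the call of INTS11 was lost at 0.30, and that of INTS9 held only without shControl replicate 2 (range -0.51 to -0.31). INTS4, the scaffold that holds them, had 32.1, 32.6 and 31.5 CPM in shRNF20 libraries and 38.0, 33.6 and 38.8 CPM in shControl libraries. The groups did not overlap, but INTS4 did not pass (-0.20, edgeR adjusted p = 0.0855). Without shControl replicate 2 it passed at -0.28.

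In the shoulder and phosphatase module, where INTS6 and INTS8 hold protein phosphatase 2A, none of 3 subunits passed. INTS8 had 32.7, 30.6 and 33.6 CPM in shRNF20 libraries and 38.7, 34.5 and 39.8 CPM in shControl libraries. CCNE2 on the opposite strand shares 20.7% of its exon bases and itself rose by 0.65. The log2 fold change of INTS8 was -0.22, and 0.12 with the strand columns summed, so no direction can be given. INTS5 had 31.6, 35.7 and 33.8 CPM in shRNF20 libraries and 38.7, 34.3 and 41.3 CPM in shControl libraries, which overlapped (-0.18). INTS6 had 34.1, 35.2 and 36.3 CPM in shRNF20 libraries and 38.0, 40.3 and 37.7 CPM in shControl libraries, apart by a small margin (-0.14, edgeR adjusted p = 0.173). Without shControl replicate 2, INTS8 passed at -0.30 and INTS5 at -0.27. INTS6L, a paralog of INTS6 that is not among the 48, had 3, 3 and 6 counts in shRNF20 libraries and 38, 3 and 3 counts in shControl libraries, too few to test. The log2 ratio of INTS6L to INTS6 differed by -0.68 between groups (exact permutation p = 1) and by 0.39 without shControl replicate 1.

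The arm (INTS10, INTS13, INTS14 and INTS15), known to bind nucleic acids and to bring the complex to enhancers, had 2 falls and 2 members short of the threshold (median -0.34). INTS13 lies on chromosome 12 (26905181 to 26938326) and had 26.9, 25.3 and 25.7 CPM in shRNF20 libraries, against 43.1, 42.1 and 53.5 CPM in shControl libraries. Its groups were far apart (log2 fold change -0.83, SE 0.11, edgeR adjusted p = 3.28e-04). INTS10 had 42.7, 36.8 and 40.0 CPM in shRNF20 libraries and 55.0, 52.6 and 55.6 CPM in shControl libraries, again without overlap (-0.45, SE 0.08, edgeR adjusted p = 0.00187). INTS14, which pairs with INTS13, had 26.9, 28.6 and 24.9 CPM in shRNF20 libraries and 34.7, 31.3 and 28.7 CPM in shControl libraries. It did not pass at -0.24, the highest shRNF20 library nearly meeting the lowest shControl library, but passed at -0.31 without shControl replicate 3. INTS15 was at -0.17 and did not pass, and was at -0.03 without shControl replicate 1. INTS3, which also serves in the SOSS complex that binds single-stranded DNA, had 45.7, 48.2 and 46.7 CPM in shRNF20 libraries and 56.4, 59.5 and 67.2 CPM in shControl libraries. It was lower in each shRNF20 library (-0.38, SE 0.09, edgeR adjusted p = 0.00524).

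Levels per length show how unequally subunits of one complex were represented in mRNA. Per kilobase of the principal transcript INTS11 was highest in both groups, at 59.3 CPM per kb in shRNF20 cells and 46.8 CPM per kb in shControl cells, alongside MED10 at 57.9 CPM per kb in shRNF20 cells and 42.2 CPM per kb in shControl cells. Lowest were MED12L, at 0.327 CPM per kb in shRNF20 cells and 0.319 CPM per kb in shControl cells, and MED17, at 1.94 CPM per kb in shRNF20 cells and 0.708 CPM per kb in shControl cells. MED17, the member with the largest fold change, was thus next to lowest by this measure in both groups. Reads over exon bases shared with other genes are not counted, so such levels may be too low. Shared bases are 30.1% for MED12L, 13.5% for MED17 and 50.1% for MED26. MED26 came next above MED17, at 2.32 CPM per kb in shRNF20 cells and 2.01 CPM per kb in shControl cells.

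Of 24 members with a principal transcript under 3000 bases 11 rose and 6 fell, and of 24 with a longer one 6 rose and 7 fell. Of 17 Mediator genes under 3000 bases 10 rose and 3 fell (median log2 fold change 0.46), and of the 16 longer ones 6 rose and 4 fell (median 0.15). Among tested protein-coding genes 29.6% of the shorter ones rose and 29.7% fell, and 26.5% of the longer ones rose and 34.9% fell. Across genes, Spearman's rho between log2 fold change and transcript length was -0.33 over the 48 members and -0.07 over 12893 protein-coding genes. This is a description across genes that share the same 6 libraries. For transcript GC content rho was -0.18 over members and -0.06 over protein-coding genes. MED17 and MED28 both rose with long transcripts, of 5142 and 10868 bases.

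**Figure D4:**
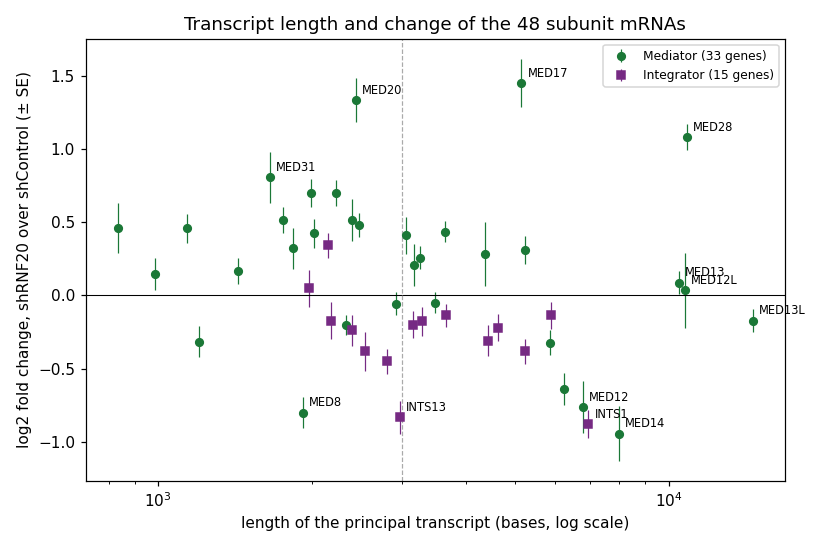
Log2 fold change (shRNF20 over shControl, vertical axis) with its SE against the length of the principal transcript in bases (horizontal axis, log scale) for the 33 Mediator (green circles) and 15 Integrator (purple squares) genes; the dashed line marks 3000 bases. Most short Mediator transcripts lie above 0 with MED8 at -0.80 below it, and among the long ones MED17 and MED28 stand above the rest.

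Promoter motifs were searched on both strands of the 36 promoters in the table, which cover 14 members that rose and 9 that fell. The ETS core CCGGAAG, the site of factors such as GABPA and ELK1, was in 11 of the 36, in 7 of the 14 that rose and in 2 of the 9 that fell, beside 19.0% of promoters of tested protein-coding genes and 10.3% of all promoters in the table. GC boxes (GGGCGG) were in 24 of 36 (9 of 14 that rose and 7 of 9 that fell), beside 70.2% and 45.0% of the same background sets. CCAAT was in 16 of 36 (4 of 14 and 6 of 9), beside 36.6% and 34.6%. The YY1 core AAGATGG was in 6 of 36, CACGTG (the E-box) in 3, TGACGTCA (the CRE) and TATAAA in 2 each, and the palindrome of NRF1 in 1, beside 7.35%, 10.01%, 3.18%, 5.68% and 2.25% of promoters of tested protein-coding genes in that order. Matches of different motifs may share letters, as where CCGGAAG runs into AAGATGG. A match is a string of letters and not a shown binding site.

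Genes that work with these complexes were read from lists of their own. Their counts stand beside 28.7% of all genes tested that rose and 29.8% that fell. Of 7 tested partners of Integrator, phosphatase and SOSS subunits among them, 4 rose and none fell (median 0.31). The 3 that did not pass were NABP2 at -0.33 (edgeR adjusted p = 0.0535), PPP2CA at -0.13 and PPP2R1A at -0.10. The libraries of both groups did not overlap for NABP2, which was lower in each shRNF20 library. NABP1, a single-stranded DNA binding subunit of SOSS, had 231.5, 222.3 and 208.6 CPM in shRNF20 libraries and 116.0, 139.3 and 114.6 CPM in shControl libraries. It rose while INTS3, its partner in that complex, fell (log2 fold change 0.84, edgeR adjusted p = 1.27e-04). INIP, the small SOSS subunit, rose by 0.35 (edgeR adjusted p = 0.0156), and its call was lost without shRNF20 replicate 1 (0.32) or 3 (0.31).

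Of 13 genes that act in the making of snRNAs, transcripts that Integrator processes, 6 rose and 3 fell (median 0.21). POU2F1, which binds the distal element of snRNA promoters, fell by 1.42 on the log2 scale, and SNAPC4, the largest subunit of the complex on the proximal element, rose by 1.14 (edgeR adjusted p = 2.60e-05 and 2.74e-05). Of 17 coactivators and cohesin genes that act with Mediator at enhancers 3 rose and 8 fell (median -0.21). The cohesin ring subunit SMC1A fell by 1.55 on the log2 scale and the cohesin loader subunit MAU2 rose by 0.54 (edgeR adjusted p = 4.45e-05 and 1.83e-04).

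Of 32 tested general transcription factors, which assemble with Mediator at promoters, 13 rose and 9 fell (median 0.05). TAF13, a subunit of TFIID, and GTF2H1, a subunit of TFIIH, rose by 1.05 and 1.21 (edgeR adjusted p = 1.28e-05 and 3.40e-05). Of 17 tested immediate early genes, classic targets of the kinase module and of Integrator, 1 rose and 4 fell (median -0.11). The other 12 did not pass, whereas 58.4% of all genes tested passed. The median coefficient of variation over the 17 was 5.79% in shRNF20 libraries and 27.4% in shControl libraries. EGR1, for example, had 47.6, 108.1 and 44.5 CPM in shControl libraries. The part of this spread in the calls was not tested. MYC and IER3 fell by 0.82 and 1.31 on the log2 scale (edgeR adjusted p = 3.55e-05 and 3.87e-05). MYC stood at 90.8, 90.02 and 96.9 CPM in shRNF20 libraries, against 160.5, 170.3 and 160.1 CPM in shControl libraries, well apart.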

How the data were processed

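The authors deposited raw read counts per gene for each of 6 libraries, without strand and for each strand. Per the submitters' processing notes, FastQC 0.12.1 and STAR 2.7.11a were used with build hg38. Neither the annotation release nor any trimming is given in the sources used here. Strand columns were nearly equal, with 50.1% to 50.2% of their reads in the first. The unstranded column was therefore used, where reads over exons of several genes are ambiguous (10.7% to 11.2% of reads). Of the 48 members 23 share no exon base with another gene and 5 share over 25%. Lines naming no gene were left out. They held 24.0% to 24.1% of reads in shRNF20 libraries and 20.9% to 22.7% in shControl libraries. Reads over no annotated gene, 1 of these lines, were 5.05% to 5.49% in shRNF20 libraries and 2.39% to 2.58% in shControl libraries. The part of this difference in the results was not tested. Multimapping reads are not counted, so near-identical genes are underestimated.

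The fit used edgeR 4.0.16 in R 4.3.3: filterByExpr (minimum count 10), TMM, and the robust quasi-likelihood test of shRNF20 against shControl over all genes, with Benjamini-Hochberg adjustment at 0.05. SE is the log2 fold change divided by the root of F. CPM uses TMM library sizes. Counts per member and library ran from 73 to 4252. The code was tested on simulated data. Paralog ratios (counts plus 0.5) were tested by exact two-sided permutation. Symbols were matched by identifier for 62686 genes. Positions and principal transcripts are from GENCODE 29, which may not be the authors' release and names INTS15 by an older symbol, and promoters are from RefSeq.

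The members and lists were chosen with earlier results of these data known. Library values are given for the kinase module, for INTS6L and for the 3 members of smallest p of each other module, and the 2 members of smallest p are named from each list of related genes. Beyond this rule, library values are given for RNF20 and, chosen with their values known, for MED8, MED22, NABP1 and MYC. NABP1 and MYC have the smallest p of their lists. Same-numbered libraries did not deviate together, so numbers were not used as pairs. Between shRNF20 libraries chi-square per gene was 2.13 to 7.66, against 36.0 to 58.8 between shControl libraries. All pairs exceed counting noise, so no libraries were merged, which does not show that they are separate cultures. The fit was repeated with upper quartile or RLE scaling, limma-voom (limma 3.58.1), DESeq2 1.42.0, no filter, a filter at 1 CPM in 3 libraries, the replicate number as a block, summed strand columns, no mitochondrial genes, summed shRNF20 libraries, and each library left out.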

Additional observations from a re-analysis of the deposited data

How the results depend on the processing

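RLE scaling, DESeq2, limma-voom and the stricter filter changed no member's call or direction. The calls of MED11, MED15 and MED23 were lost without the filter, that of MED11 also without mitochondrial genes, that of MED25 under upper quartile scaling, and that of INTS7 with strand columns summed (log2 fold change -0.28). With the 3 shRNF20 libraries summed to 1 sample, 1642 genes were higher and 1753 lower, among them 5 Mediator subunits higher and 1 lower, 0 and 0 of the kinase module, and 0 Integrator subunits higher and 2 lower. The spread then comes from the shControl libraries alone, and the lone sample is assumed to vary like them. With each library left out in turn, 3617 to 4755 genes were higher and 3906 to 5022 lower, with 11 to 17 Mediator subunits higher and 4 to 8 lower, 1 to 2 of the kinase module higher and 2 to 3 lower, and 0 to 1 Integrator subunits higher and 4 to 9 lower. The 9 came without shControl replicate 2, the 4 Mediator falls without shRNF20 replicate 1, and the 0 without shRNF20 replicate 2.

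Directions turned for values that had not passed, and for MED25. With strand columns summed these were INTS8 (0.12), INTS12 (-0.0225), MED12L (-0.0086) and MED25 (0.13). With each library left out INTS12 was at -0.0057 (without shControl replicate 3) to 0.074. MED12L was at -0.00512 without the filter and at -0.18 to 0.24 with each library left out. The difference in the INTS6L to INTS6 ratio was -1.27 to 0.39, the last without shControl replicate 1. The strand sum counts reads over genes on opposite strands for both; the cause of the other turns was not tested.

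Same-numbered libraries had correlations of deviations of -0.0163, 0.035 and 0.0284, so numbers do not pair samples. With the replicate block, 4418 genes were higher and 4518 lower, with 15 Mediator subunits higher and 5 lower and 1 Integrator subunit higher and 5 lower. The calls of MED11, MED19, MED25 and INTS9 were lost. Among members that did not pass, MED13, MED16, MED24, MED26, MED27, MED30 and INTS5 also moved by over 1.5 times with 1 library left out. Low counts limit MED11, MED12L, MED17 and MED31, each with under 100 counts in some library.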
